A study of Mus musculus with 13 samples.

Results

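Cells reprogrammed with 2 transcription factors were set against embryonic fibroblasts across every gene with a symbol. The comparison takes 2 of the 13 single-colour Cy5 arrays of a mouse series on cardiac reprogramming, chosen by their sample titles and by no measured value. MT iCMs are cardiomyocyte-like cells induced with Mef2c and Tbx5 and kept in FFV, a medium with FGF2, FGF10 and VEGF. MEFs are mouse embryonic fibroblasts for which the labels name no factor and no medium. No label tells from which cells the MT iCMs were made, how long they were cultured or whether they were sorted.

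Of 23473 probes on the array 16631 carried a gene symbol, which gave 16390 genes, and 15287 of these were above the level of the blank spots in at least 1 of the 2 arrays. Each side is 1 array, so no error and no test can be given, and every difference below is a description of these 2 arrays. They also belong to different array series by the identifiers in the files, so what is due to the cells cannot be told apart from what is due to the series. TTFs, the tail-tip fibroblasts of the study, were hybridised in the same series as the MT iCMs and are given beside the MEFs as another fibroblast array. Values of other arrays are set beside the members where they help in reading a level. These are iCMs made with Gata4, Mef2c and Tbx5 (GMT) in FFV at 2 and 4 weeks, iCMs made from TTFs with GMT plus Mesp1 and Myocd (GMTMM) in FFV, and whole hearts taken on embryonic day 12 (E12 below) or on postnatal day 1 (P1 below).

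MEF2C is a MADS-box factor that binds AT-rich elements before many muscle genes. TBX5 is a T-box factor of the early heart tube and forelimb, mutated in Holt-Oram syndrome, and acts on chamber genes together with GATA4 and NKX2-5. In direct reprogramming these factors are forced into fibroblasts, and the outcome is read as a gain of sarcomere, calcium-handling and channel genes and a loss of fibroblast matrix genes.

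The values are those deposited by the authors. Each is a spot intensity less the level of blank spots, on a scale where the listed median of every array is 25. Spots without a probe reached 4.44 on the MT iCM array and 2.97 on the MEF array at their 99th percentile, so single values below about that level carry little information. For ratios, values below 1.57, the higher of the 2 blank limits, were set to 1.57, and a ratio with its lower side there is a bound. A gene was counted as higher or lower when the 2 values were at least 2-fold apart.

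By this count 2128 genes (13.9% of those tested) were higher in MT iCMs, 2474 (16.2%) were lower, 30.1% together, and 10685 were under 2-fold apart. Low values carried a large part of this: in 523 of the higher and 1207 of the lower genes even the higher value was under the array median. Among the 9028 genes whose higher value reached that median, a filter chosen after seeing the data, 1605 were higher and 1267 lower. The higher genes thus made up 46.2% of all calls and 55.9% of these. Signal correction moved the counts further. With normexp correction and quantile normalisation of the scanner output 732 genes were higher and 687 lower, and with median scaling 915 and 612, of which 59.9% were higher. With 25 added to both values the calls were 1073 and 690, of which 60.9% were higher. TTFs against MEFs, which are both fibroblasts but from different array series, parted 13% of genes upward and 12.3% downward by the same count. The size of a gene count here is therefore close to that between 2 fibroblast arrays, and the account below rests on which genes lie far apart and on their values against both fibroblast arrays. List counts without a share beside them are to be read against the shares of all genes. These were 13.9% higher and 16.2% lower against MEFs, and 9.43% and 12.1% against TTFs.

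**Figure D1:**
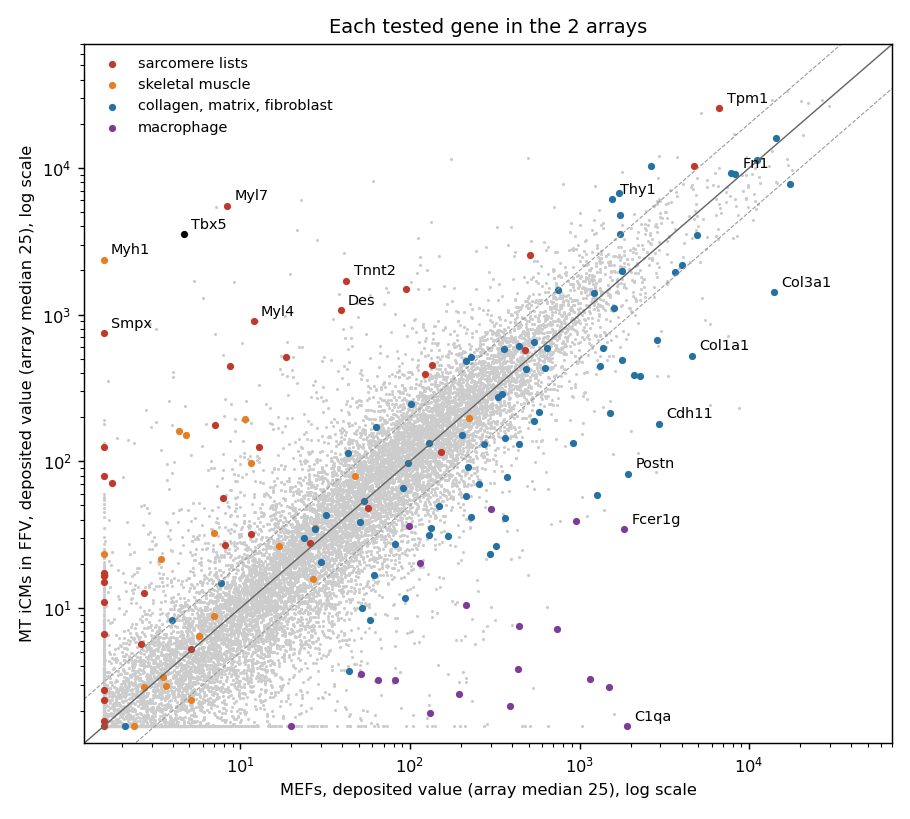
Deposited value of each of the 15287 tested genes in MEFs (x axis, log scale) and in MT iCMs (y axis, log scale), both on a scale with an array median of 25 and a floor of 1.57. Grey points are all genes, coloured points are listed genes, the solid line marks equal values and the dashed lines mark 2-fold. Sarcomere genes (red) and part of the skeletal muscle genes (orange) spread above the line, whereas macrophage genes (purple) and many matrix genes (blue) lie below it.

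The transduced factor that could be read checked the label. The Tbx5 probe gave 3544 in MT iCMs against 4.65 in MEFs and 3.18 in TTFs, 762-fold above MEFs. It read 3449 in GMT iCMs at 4 weeks, but only 63.7 and 44.2 in the E12 and P1 hearts. Both transduced cell types therefore lay far above the hearts on this probe, and no source says whether it also detects transcripts from the vector. Mef2c was not analysed here. Gata4, the zinc finger factor left out of MT, stood at 6.50 in MT iCMs and 4.39 in MEFs, where GMT iCMs at 4 weeks had 6268. Myocd, the SRF coactivator, was at 7.01 against 2.06, and Hand2, a basic helix-loop-helix factor of the right ventricle, at 3.79 against 14.3. Mesp1 was above the blank level in neither array. All these values of the untransduced factors lie under the array median of 25. For Hand2 the direction turned against TTFs, which had 0.843.

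Sarcomere genes were higher in MT iCMs as a group. Of 37 tested genes of the thick filament, thin filament and Z-disc lists 28 were higher in MT iCMs (75.7%, against 13.9% of all genes). None was lower, where 16.2% of all genes were. The median log2 difference was 2.33, where the median of all tested genes was 0.00. Against TTFs 27 were higher, where 9.43% of all genes were, and none lower, where 12.1% were, with a median of 2.81. After quantile normalisation 19 were higher, against 4.79% of all genes, and none lower, against 4.49%, with a median of 1.06. In these bulk samples, fewer cells of a type and less RNA per cell cannot be told apart. The level of a gene in MT iCMs may thus come from few cells with much transcript or many with little.

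In the thick filament and M-band list 9 of 11 tested genes were higher (81.8%, against 13.9% of all genes). Myl7, the atrial regulatory light chain, was at 5511 in MT iCMs against 8.34 in MEFs and 4.72 in TTFs, 661-fold above MEFs. Myl4, the atrial essential light chain, was at 906 against 12, and Myom1, the myomesin that links thick filaments at the M-band, at 447 against 8.74. Those 3 genes were thus bright in MT iCMs and near the floor of the range in both fibroblast arrays. Myom2 stood at 126 in MT iCMs and 1.37 in MEFs, at least 80.3-fold higher. Ttn, the titin spring, was at 79 on its brightest probe and not listed in MEFs. Its other 2 probes gave 12.2 and 2.29 in MT iCMs. The myosin heavy chains that carry cardiac contraction stayed dim. Myh6 was at 15 in MT iCMs and 1.54 in MEFs, whereas it reached 4020.5 in GMT iCMs at 4 weeks and 16896 in the P1 heart. Myh7, the slow chain, was at 12.6 against 2.71. The ventricular light chain Myl2 was at 5.65 against 2.59, and 36272 in the P1 heart. MT iCMs stood at 60.9% of GMT iCMs at 4 weeks for Myh7 and 171% for Myl2, but at 0.374% for Myh6. The low Myh7 and Myl2 were thus shared with GMT iCMs. The ventricular light chain and both cardiac heavy chains, though over 2-fold apart, stood at values under the array median. The Myl3 probe read 10386 in MT iCMs and 4723 in MEFs, yet 1864 in the P1 heart, where this ventricular light chain is known to be abundant. This probe thus goes against what is known of Myl3, and whether it reads that gene alone was not tested. Without it 27 of 36 sarcomere genes were higher and none lower, with a median of 2.57, and against TTFs 26 were higher and none lower.

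Of the thin filament genes 8 of 9 were higher (88.9%, against 13.9% of all genes), with a median of 2.84 (log2). Tnnt2, cardiac troponin T, was at 1702 in MT iCMs, 42.2 in MEFs and 1.02 in TTFs. Tnni3, cardiac troponin I and a marker of the maturing heart, was at 514 against 18.6 and 22.8. Tnnc1, the troponin C of heart and slow muscle, was at 126 against 12.9. All 3 subunits of cardiac troponin were thus above both fibroblast arrays, by 40.3-fold, 27.6-fold and 9.78-fold against MEFs. Tmod1, which caps the pointed end, was at 56.1 against 7.86. Xirp2, an actin-binding repeat protein, was at 17.4, and Nebl, the nebulin relative of the heart, at 6.60, with neither listed in MEFs. Tpm1 was bright in both arrays, with 25622 against 6678. On this probe MT iCMs stood at 2456% of the E12 heart and 4595% of the P1 heart. Whether it reads the heart form of Tpm1 alone was not tested. Tnni1, the slow troponin I of the fetal heart, was the member without a difference of 2-fold, at 48.1 against 56.3. Actc1 was not analysed here.

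In the Z-disc and desmin list 11 of 17 were higher (64.7%, against 13.9% of all genes). Smpx, the small muscle protein of the costamere, was at 749.5 in MT iCMs and 1.13 in MEFs, at least 479-fold higher. Des, the muscle intermediate filament, was at 1072 against 39 and Nexn, a Z-disc protein, at 1507 against 94.5. Actn2, the sarcomeric alpha-actinin that anchors thin filaments, was at 71.7 against 1.74, and Pdlim3, which binds it, at 176 against 7.06. Most of these scaffold genes were low in MEFs and well up the range in MT iCMs. Csrp3, the muscle LIM protein, remained dim at 16.6, not listed in MEFs and at 9030.0 in GMT iCMs at 4 weeks. The 6 genes under 2-fold were Hspb7, Ldb3, Myot, Popdc2, Tcap and Pdlim5.

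The 28 higher sarcomere genes were then read against the hearts and against GMT iCMs, each gene on its own probe. Their level in MT iCMs had a median of 19.4% of that in the E12 heart, 13.2% of that in the P1 heart and 15.1% of that in GMT iCMs at 4 weeks. Of the 28, 10, 13 and 11 were under 10% of those 3 arrays, and 11, 10 and 11 reached 50%. These 28 were chosen through their values in MT iCMs, which also enter the percentages. Over all 37 tested sarcomere genes, called or not, the median log2 difference was -2.28 against the E12 heart. It was -2.82 against the P1 heart and -1.74 against GMT iCMs at 4 weeks. Des stood at 158% of the P1 heart and 364% of GMT iCMs, Nexn at 149.6% and 144%, and Myom1 at 51% and 160.4%. Tnnt2 by contrast stood at 5.95% of the P1 heart and 8.62% of GMT iCMs, Tnni3 at 5.10% and 12.8%, and Csrp3 at 0.471% and 0.184%. Neither the M-band nor the Z-disc genes were alike in this: Myom2 stood at 7.46% of the P1 heart and Actn2 at 1.28%. Without the Myl3 probe the medians over the other 27 genes were 18.2%, 10.5% and 14.1%. Tpm1, at 4595% of the P1 heart, was kept in all these counts. GMT iCMs were sorted by an aMHC-GFP reporter, and no sort is named for MT iCMs, so purity and level cannot be told apart between them. GMTMM iCMs in FFV, of the same array series as MT iCMs, had a lower sarcomere level than MT iCMs: 21 of 37 genes were at least 2-fold higher in MT iCMs and 2 lower, where 6.72% and 9.74% of all genes were.

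**Figure D2:**
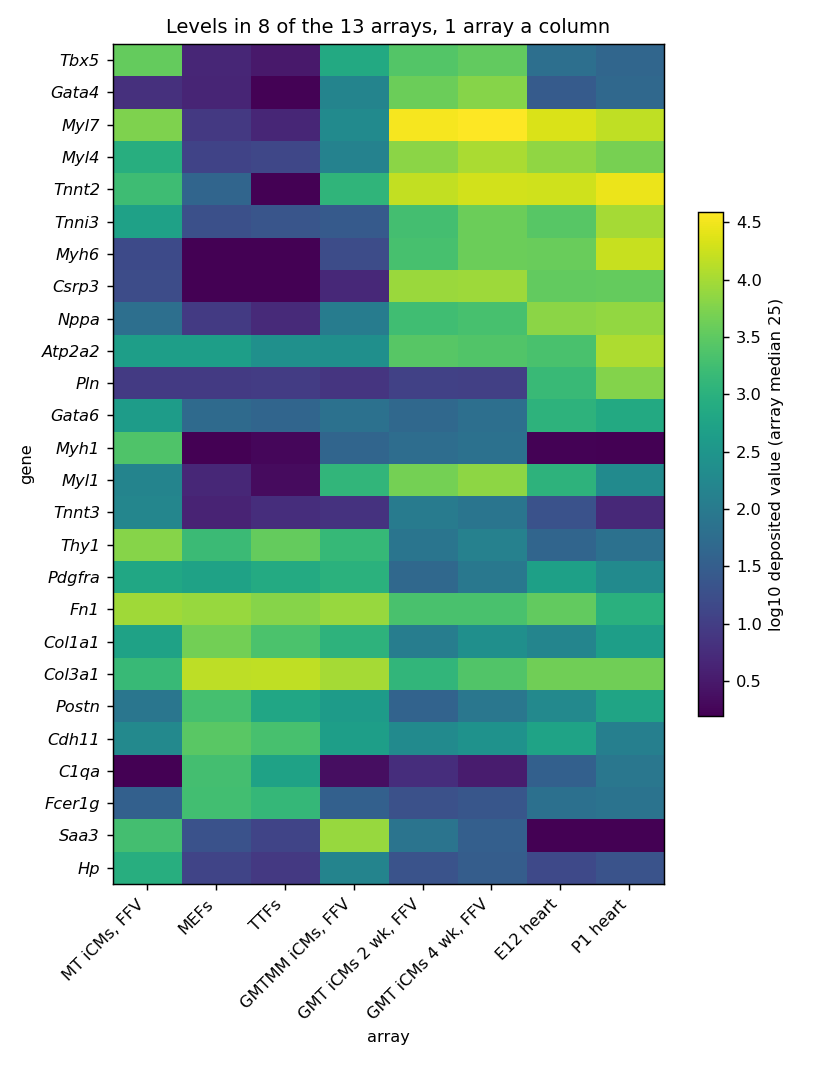
Deposited values of 26 genes (rows) in 8 of the 13 arrays (columns, 1 array each), coloured by log10 value with a floor of 1.57. MT iCMs share Tbx5, Myl7, Tnnt2 and Tnni3 with GMT iCMs and hearts at lower levels for the latter 3, lack the high Gata4, Myh6 and Csrp3 of GMT iCMs, and hold more Myh1, Thy1 and Hp than the other 7 arrays.

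The promoters of these genes were searched for elements that the transduced factors are known to bind. The windows are RefSeq promoters of the GRCm38.p6 build, 250 bases before to 50 after a gene start, and both strands were read for the MEF2 element, the T-box element AGGTGTNA and the CArG box of SRF, an AT-rich element that differs from that of MEF2. Of the 28 higher sarcomere genes 25 had 34 promoters in the table. A MEF2 element was in 6 of these (17.6%), where 3.19% of all promoters held 1. A CArG box was in 6 (17.6%), against 1.63% of all, and the T-box element was in 3 (8.82%), against 3.03%. Over all 37 sarcomere genes, called higher or not, the shares were near these: MEF2 15.6%, CArG 17.8% and T-box 6.67%. The higher genes supply 34 of the 45 promoters of this list, so near shares follow from the overlap. The counts cannot tell whether the higher genes differ from the rest of their list. Of the promoters of measured genes 2.41%, 1.43% and 2.67% held the element. Some genes entered with more than 1 promoter, such as Synpo2l for MEF2 and Fhl2 for CArG. Over all genes higher in MT iCMs the shares were 2.70%, 1.48% and 2.88%, and over all lower genes 1.69%, 1.31% and 1.57%. The shares of all higher genes thus lay close to those of all promoters, and the shares of the sarcomere genes rest on few promoters and were not tested. Of the 7 promoters of skeletal muscle genes higher in MT iCMs, 1, that of Myh1, held a MEF2 element. In these 7, 0 held a CArG box and 0 the T-box element. A match is a run of letters and shows no binding. The 6 windows below are from genes named above or below, with up to 40 bases on each side of the element, which is in capitals.
Myl7 (CArG, chr11:5898794-5898883, minus strand): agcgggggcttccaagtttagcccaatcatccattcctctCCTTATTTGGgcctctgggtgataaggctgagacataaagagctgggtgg
Myom1 (CArG, chr17:71019418-71019507, plus strand): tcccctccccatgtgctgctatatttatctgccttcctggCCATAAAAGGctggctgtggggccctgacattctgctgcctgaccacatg
Ttn (MEF2, chr2:76982664-76982753, minus strand): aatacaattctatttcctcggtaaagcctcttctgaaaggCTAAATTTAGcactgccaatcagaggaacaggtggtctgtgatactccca
Myh1 (MEF2, chr11:67199852-67199940, plus strand): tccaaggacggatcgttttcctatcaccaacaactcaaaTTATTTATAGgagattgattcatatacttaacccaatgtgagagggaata
Tnni3 (T-box, chr7:4522682-4522769, minus strand): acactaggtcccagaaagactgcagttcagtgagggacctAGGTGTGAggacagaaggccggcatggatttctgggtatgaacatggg
Pdlim3 (T-box, chr8:45885237-45885319, plus strand): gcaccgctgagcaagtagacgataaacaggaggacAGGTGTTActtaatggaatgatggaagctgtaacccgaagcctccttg

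Counted from the gene start, the element begins at -61 in Myl7, -99 in Myom1 and -166 in Ttn. It begins at -211 in Myh1, -201 in Tnni3 and -215 in Pdlim3. The promoters of Tnnt2, Des, Smpx, Myl4 and Mustn1 held none of the 3 elements in the bases before the start.

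Genes that mark a working cardiomyocyte beyond the sarcomere differed less evenly. In the natriuretic list Nppa, the atrial peptide, was at 64.1 in MT iCMs against 8.68 in MEFs, and Corin, the protease that activates it, at 11.1 with no value in MEFs. Nppb was lower, at 4.85 against 11.7, and Npr3, the clearance receptor, was at 20.9 against 29.2. Nppa was still far under the 7493 of the P1 heart and the 2021 of GMT iCMs at 4 weeks.

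Calcium handling by the sarcoplasmic reticulum was partly represented, with a median of 0.24. Of 17 genes 7 were higher (41.2%, against 13.9% of all genes) and 2 lower (11.8%, against 16.2%). Trdn, triadin of the release complex, was at 698 in MT iCMs against 124 in MEFs and 118 in TTFs. Hrc, the histidine-rich calcium-binding protein, was at 105 against 20.5. Casq2, the cardiac calcium store protein, was at 57 with no value in MEFs, and Srl, sarcalumenin, at 45.1 against 0.898. The other higher genes were Jph2, Tmem38a and Slc8a1, the sodium-calcium exchanger, at 13.7, 25.8 and 19.2 against 5.07, 9.61 and 8.81. Ryr2, the release channel, was at 1.84 in MT iCMs, hardly above the blanks. Atp2a2, the reticulum pump, was at 464 against 458, and its inhibitor Pln at 8.72 against 8.67, where the P1 heart had 5924. Cacna1c, the pore of the L-type channel, was lower at 1.97 against 7.47. Asph was also lower, at 4.81 against 30.5, but TTFs had 4.24, so this held against MEFs and not against TTFs.

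Of 19 ion channel and gap junction genes 4 were higher and 4 lower (21.1% each, against 13.9% and 16.2% of all genes). Against TTFs 1 was higher and 2 lower (5.26% and 10.5%, against 9.43% and 12.1% of all genes). After quantile normalisation 1 was higher and 0 lower, where 4.79% and 4.49% of all genes were. Kcnh2, the channel of the rapid delayed rectifier current, stood out at 258 against 10.8 in MEFs and 18.9 in TTFs. Cacna1d was at 27.7 against 6.43 but 32.4 in TTFs. Kcnj8 and Abcc9, a pore and its sulfonylurea receptor, were higher than in MEFs at values under 10 in MT iCMs. For Kcnj8 the direction turned against TTFs and with the local surround subtracted. The 4 lower genes Kcnq1, Hcn2, Kcnk3 and Kcnj2 were at values under 10 in MT iCMs as well. Gja1, the gap junction protein of fibroblasts and ventricle, was bright in both arrays at 2122 and 1841. Hcn4 and Kcnj5 were above the limit in neither array, and Kcnj11 was not analysed here.

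Among the other cardiac regulators 6 of 22 were higher (27.3%, against 13.9% of all genes) and 3 lower (13.6%, against 16.2%). Gata6, the relative of Gata4 that shares its DNA element, was at 422 in MT iCMs against 51.7 in MEFs and 42.6 in TTFs, and at 63.7 in GMT iCMs at 4 weeks. It was thus high in MT iCMs alone of these 4 arrays, while the E12 heart had 1081. Srf, which binds the CArG box, was at 176 against 61.1. Tbx3 was at 234 against 48.9, but TTFs had 253. The lower genes Nrg1, Bmp10 and Gata5 stood at 2.21, 13 and no value in MT iCMs. Tbx20 and Isl1 were above the limit in neither array, and Nkx2-5 was not analysed here.

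**Figure D3:**
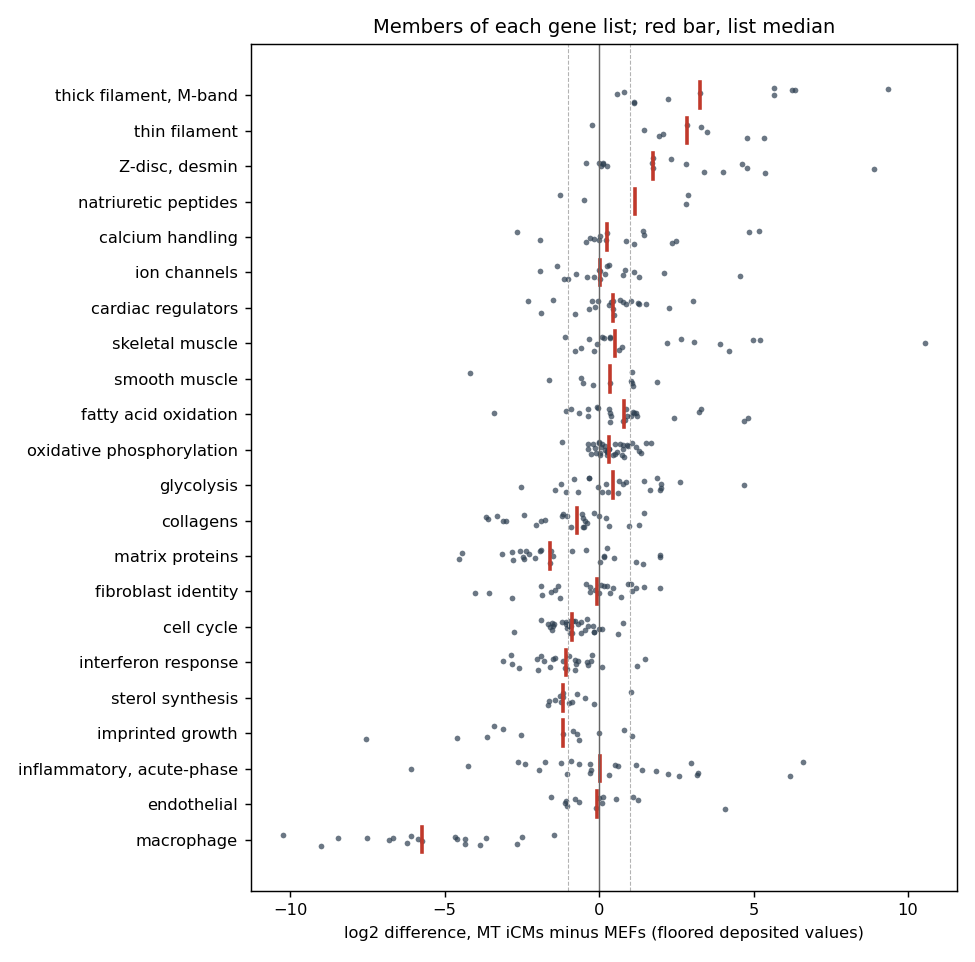
Log2 difference, MT iCMs minus MEFs (x axis, floored deposited values), of each tested member (points) of 22 gene lists (rows), with the list median as a red bar and 2-fold as dashed lines. The 3 sarcomere lists have medians of 3.26, 2.84 and 1.75, most other cardiac lists lie near 0, matrix proteins at -1.58 and macrophage markers at -5.73.

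Of 20 skeletal muscle genes 8 were higher (40%, against 13.9% of all genes) and 1 lower, with a median of 0.51. Myh1, a fast heavy chain, was at 2365 in MT iCMs against 0.931 in MEFs, 1.83 in TTFs and 67.3 in GMT iCMs at 4 weeks. It was at least 1511-fold higher than in MEFs, the largest ratio among the genes that the rule names, and its other probe read 178 against 4.40. The E12 heart had 1.68 on this probe and the P1 heart no value. Myosin heavy chains share long stretches of sequence, so reads of a relative on these probes cannot be told apart from Myh1 itself. Tnnt3, the fast troponin T, was at 161 against 4.35, Tnnt1, the slow form, at 195 against 10.7, and Myl1, a fast light chain that the fetal heart also makes, at 151 against 4.77. Mylpf, the fast regulatory light chain, was at 97.7 against 11.5, and Myh3, Tnnc2 and Cav3 completed the higher genes. The factors that specify skeletal muscle were under 2-fold apart. Myod1 was at 35.2 against 27.5, Myog at 3.37 against 3.50, and Myf5 and Pax7 were at values under 3 in both arrays. Against TTFs 9 of 20 skeletal genes were higher (45%, against 9.43% of all genes) and none lower. GMT iCMs at 4 weeks, set against the same MEF array, also had 8 of 20 higher and 1 lower, with a median of 0.65. Of all genes 17% were higher and 9.68% lower in that comparison. The count is thus shared with GMT iCMs.

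In fatty acid uptake and oxidation 10 of 26 genes were higher (38.5%, against 13.9% of all genes) and 2 lower (7.69%, against 16.2%), with a median of 0.81. After quantile normalisation 4 were higher and 2 lower, where 4.79% and 4.49% of all genes were. Ppargc1a, the coactivator that drives mitochondrial biogenesis, was at 247 in MT iCMs against 8.80 in MEFs and 4.51 in TTFs. Pdk4, the kinase that turns pyruvate away from oxidation, was at 597 against 22.9. Cpt1b, the muscle form of the carnitine transferase, was at 52.1 against 5.25, and Ppara, the nuclear receptor of fat oxidation, at 28.8 against 3.03. The first 3 of these were over 2-fold higher against TTFs as well, which had 16.6 of Ppara. Cd36, the fatty acid transporter of muscle, adipocytes and macrophages, was lower, at 13.4 against 143, but TTFs had 5.66. Of 37 genes of oxidative phosphorylation 6 were higher (16.2%, near the 13.9% of all genes) and 1, Sdhb, lower, with a median of 0.31, so most respiratory chain subunits were under 2-fold apart. The muscle isoforms Cox8b and Cox6a2, which few other tissues use, were at 28.5 against 11.6 and 36.8 against 16.1.

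Of 24 genes of glycolysis and glucose transport 8 were higher (33.3%, against 13.9% of all genes) and 4 lower (16.7%, against 16.2%). Pgam2, the muscle phosphoglycerate mutase, was at 329 against 12.8 in MEFs, whereas Pgam1, the common form, was at 5119 against 4795. Ldhb, the lactate dehydrogenase subunit of heart, was at 2517 against 409.6, whereas Ldha, the subunit of skeletal muscle, was at 1795 against 2863. Pfkm, Eno3 and Slc2a4, the muscle phosphofructokinase, muscle enolase and insulin-responsive glucose transporter, were higher by 4.05-fold, 3.89-fold and 3.98-fold. Slc16a3, the lactate exporter of glycolytic cells, was lower at 39.1 against 225. The Gapdh probe read 33.5 against 79.5, low in both arrays beside the Pgam1 values of the same list. Whether this probe reads the full level of Gapdh was not tested. In the energy buffer, Ckb was at 2875 against 649 and Mb, myoglobin, at 48.2 against 13.1. Gatm, which makes the precursor of creatine, was lower at 1.10 against 182.

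Fibroblast genes were lower as a group but far from lost. Over the collagen, matrix and fibroblast identity lists 37 of 79 tested genes were lower in MT iCMs (46.8%, against 16.2% of all genes) and 11 higher (13.9%, the share of all genes), with a median of -0.54 (log2). Against TTFs 39 were lower (49.4%, against 12.1% of all genes) and 7 higher (8.86%, against 9.43%), with a median of -0.91. The summed value of these genes was 111633 in MT iCMs, 135762 in MEFs and 198352 in TTFs. GMT iCMs at 4 weeks, set against the same MEF array, had 53 of the 79 lower and 4 higher with a median of -1.76, where 9.68% and 17% of all genes were. In MT iCMs set directly against those GMT iCMs 32 of the 79 genes were higher and 11 lower, where 7.29% and 17.4% of all genes were. GMT iCMs were sorted by a reporter, so purity and level cannot be told apart here either. Against GMTMM iCMs in FFV, of the same array series, 6 of the 79 were higher in MT iCMs and 32 lower. Of all genes 6.72% and 9.74% were.

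Of the collagens and their enzymes 12 of 26 were lower (46.2%, against 16.2% of all genes) and 2 higher (7.69%, against 13.9%). Col1a1, a chain of type I collagen, was at 526 in MT iCMs, 4583 in MEFs and 2259.7 in TTFs. Col3a1 was at 1418 against 14039 and 15022, and Col14a1 at 23.3 against 298 and 24.5. Types I and III were lower than in both fibroblast arrays, type XIV only than in MEFs. Loxl2, a crosslinking oxidase, was at 26.7 against 323. Pcolce and P4ha1, which both act in the processing of procollagen, were the 2 higher genes, at 4744 against 1727 and 247 against 102.

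Among matrix glycoproteins and small proteoglycans 16 of 27 were lower (59.3%, against 16.2% of all genes) and 4 higher (14.8%, near 13.9%). The median was -1.58. Postn, periostin of activated fibroblasts, was at 82.6 in MT iCMs, 1938 in MEFs and 620.2 in TTFs, 23.5-fold lower than in MEFs. Lum, a collagen-binding proteoglycan, was at 58.6 against 1259.6 and 961. Tnc, tenascin C, was at 213 against 1512 and 4212. These genes of the fibrous matrix were low against both fibroblast arrays. Fbn2, the fetal fibrillin, was at 41.4 against 365, but TTFs had 20.2. Fn1, fibronectin, was bright and alike in the arrays, at 9137, 8282 and 6261. The higher genes were Spp1, Mgp, Comp and Ecm1, of which Mgp, an inhibitor of calcification, was at 10263 against 2632.

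The surface and transcription factor list held genes on both sides, with a median of -0.069. Of 26 genes 5 were higher (19.2%, against 13.9% of all genes) and 9 lower (34.6%, against 16.2%). Thy1, the classical fibroblast surface marker, was higher in MT iCMs at 6145 against 1562 in MEFs and 3510.4 in TTFs, where GMT iCMs at 4 weeks had 132. Cdh11, the mesenchymal cadherin, was lower, at 181 against 2949 and 2026. The homeobox genes Meox2 and Meox1 were lower too, at 3.71 against 43.5 and 8.26 against 58.4. Pdgfra and Vim, common to all mesenchymal cells, were under 2-fold apart, at 652 against 541 and 16006 against 14381. Against TTFs 12 of this list were lower and 2 higher, with a median of -0.81. Of the proteases and inhibitors 9 of 24 were lower (37.5%, against 16.2% of all genes) and 6 higher (25%, against 13.9%). The plasminogen activators Plau and Plat were at 3.79 against 39.1 and 24.3 against 204, whereas Serpine2, an inhibitor of such proteases, was at 3654 against 879.5.

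Of 19 TGF-beta and CCN genes 4 were higher and 4 lower (21.1% each, against 13.9% and 16.2% of all genes). Ccn2 and Ccn1, matricellular proteins of stretched and TGF-beta-treated cells, were at 5407 against 705 and 7590.4 against 1233, above both fibroblast arrays. Ccn5 and the inhibitory Smad7 were also higher. Tgfbi, a secreted TGF-beta target, was at 39 against 764 and Ccn3 at 115 against 2225. Members of 1 small family thus lay at opposite ends of the list. Of 11 smooth muscle genes 5 were higher (45.5%, against 13.9% of all genes) and 2 lower (18.2%, against 16.2%). Acta2, smooth muscle actin, was bright in all 3 arrays, at 29206 in MT iCMs, 13568 in MEFs and 6491 in TTFs. Actg2 was lower, at 37.4 against 677, and Cnn1 was at 68 against 209 but 10.3 in TTFs.

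The lowest genes of the comparison were not fibroblast genes but macrophage markers. All 19 measured markers of the fixed list were lower in MT iCMs than in MEFs, where 16.2% of all genes were. Their median log2 difference was -5.73, or -2.67 after quantile normalisation. C1qa, C1qb and C1qc, the chains of the first complement component, were at 1895, 1483 and 1153 in MEFs and at 1.18, 2.91 and 3.27 in MT iCMs. Fcer1g and Tyrobp, adaptors of myeloid receptors, were at 1827 and 737 in MEFs and at 34.4 and 7.21 in MT iCMs. The pan-leukocyte gene Ptprc was at 82 in MEFs and 3.25 in MT iCMs, and the macrophage receptor Mrc1 at 388 and 2.13. Summed over the list the value was 10581 in MEFs, 4495 in TTFs and 231 in MT iCMs, and 16 of 19 genes were lower in MT iCMs against TTFs. Both fibroblast arrays thus carried macrophage transcripts, while the C1q chains and Ptprc were at values under 4 in MT iCMs. GMT iCMs at 4 weeks had all 19 lower against MEFs too, and share the MEF array as control. Against MEFs the list median was -5.72 in GMTMM iCMs in FFV, -4.52 in the E12 heart, -3.74 in the P1 heart and -1.43 in TTFs. The MEF array thus read above each of these arrays, and the low level was not particular to MT iCMs. Of the 12 lowest genes chosen by rule, Ms4a6d, Ms4a7, Ctss, Fcrls, C3ar1, Ccl12 and Ccl3 are, beside the C1q chains and Mrc1, known from myeloid cells, and only Dlk1 is not. The part of macrophages in the other lower genes was not tested.

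Genes of inflammation lay on both sides. Of 26 tested secreted and acute-phase genes 10 were higher (38.5%, against 13.9% of all genes) and 8 lower (30.8%, against 16.2%). Saa3, an acute-phase amyloid protein, was at 1904 in MT iCMs against 19.7 in MEFs and 12.7 in TTFs, and Hp, haptoglobin, at 902 against 12.5 and 8.25. Lcn2, lipocalin 2, was at 273 against 29.8, and C3, the central complement protein, at 211 against 23.7. Il6, Lif and Cxcl1 were higher by 6.07-fold, 4.70-fold and 7.86-fold. Saa3 also reached 8229 in GMTMM iCMs in FFV but 33.9 in GMT iCMs at 4 weeks. Among the lower genes were Ccl9 at 3.14 against 215, Cxcl5 at 5.91 against 112 and Il1rn at 3.10 against 19.2. Macrophages are a known source of Ccl9 and Il1rn, whose part was not tested.

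Interferon-response genes were lower in MT iCMs than in MEFs, with a median of -1.08. Of 26 genes 14 were lower (53.8%, against 16.2% of all genes) and 2 higher (7.69%, against 13.9%). Oasl2, Ifit3 and Oas1a, antiviral effectors, were at 10.8, 13.3 and 19 against 92.9, 96.5 and 114. Against TTFs only 3 of 26 were lower (11.5%, near the 12.1% of all genes) and 2 higher (7.69%, against 9.43%). The median was -0.27, and TTFs had 15.5 of Oasl2. The difference thus lay mostly with the MEF array. Sterol synthesis was alike in this respect. Of 13 genes 7 were lower against MEFs (53.8%, against 16.2% of all genes) and 0 against TTFs (against 12.1%). Insig1, the sterol sensor partner, was at 24.3 against 77.1 in MEFs and 26.6 in TTFs. Of 15 genes of amino acid stress 6 were lower against MEFs (40%, against 16.2% of all genes) and 9 against TTFs (60%, against 12.1%). Ddit4 was at 13.9 against 151 and 185 and Trib3 at 22.9 against 96.1 and 105. For these the 2 fibroblast arrays were on the same side.

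Cell cycle genes were lower against MEFs and higher against TTFs. Against MEFs 12 of 32 were lower (37.5%, against 16.2% of all genes), 0 higher, and the median was -0.89. Against TTFs 14 were higher (43.8%, against 9.43% of all genes), 0 lower, and the median was 0.94. Top2a, the replicative topoisomerase, was at 93 in MT iCMs, 342 in MEFs and 45.3 in TTFs, and Ccna2, cyclin A, at 78.8, 247 and 28. MT iCMs thus stood between the 2 fibroblast arrays, and GMT iCMs at 4 weeks had 53.6 of Top2a. The E12 heart was above them all with 726. Among p53 targets and cell cycle inhibitors the lower genes were Cdkn2a, Cdkn1c, Trp53inp1 and Cdkn1b and the higher gene was Btg2. Cdkn2a, the locus of p16 and p19, was at 6.85 against 101 in MEFs and 676 in TTFs. Cdkn1a, the p21 inhibitor, was at 1119 against 666 and 2195.

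Imprinted growth genes of the embryo were lower, 7 of 13 against MEFs (53.8%, against 16.2% of all genes) with 1 higher (7.69%, against 13.9%). The median was -1.17. Against TTFs 6 were lower (46.2%, against 12.1% of all genes) and 2 higher (15.4%, against 9.43%), with a median of -0.41. TTFs set against MEFs had 8 of 13 lower, where 12.3% of all genes were, with a median of -1.56. The list was thus low against the MEF array in TTFs as well. Igf2, the fetal growth factor, was at 243 in MT iCMs, 5918 in MEFs and 508 in TTFs, and its neighbour H19 at 710.0, 7479.6 and 1836. Dlk1, a Notch ligand relative of fetal mesenchyme, was at 2.83, 530.3 and 134, and Cdkn1c, a cell cycle inhibitor, at 161, 2019 and 684. For each of these 4 genes MT iCMs were lowest and MEFs highest of the 3 arrays. Mest was at 182 against 1043 but 112 in TTFs.

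Of 17 tested posterior Hox genes 7 were lower (41.2%, against 16.2% of all genes) and 3 higher (17.6%, against 13.9%). Of 16 more anterior genes 1 was lower and 1 higher, Hoxd1 and Hoxa5. Hoxd13 and Hoxa13, the genes of the distal limb and genital bud, were at 26.7 and 21.4 in MEFs and had no value in MT iCMs. TTFs shared Hoxa13 at 20.4 and had the tail gene Hoxb13 at 84.1 and Hoxc13 at 581, where MT iCMs had 0.994 and 48.4. Hoxc8, a gene of the thoracic region, was at 258 in MT iCMs against 51.4 in MEFs and 7.62 in TTFs. Hoxa9 and Hoxd9 were the other 2 higher genes, at 22.2 against 10.8 and 55.4 against 25.

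The medium of the MT iCMs held FGF2, FGF10 and VEGF, and no medium is named for the MEFs. Of 26 FGF, ERK feedback and immediate early genes 7 were higher (26.9%, against 13.9% of all genes) and 5 lower (19.2%, against 16.2%). Egr1 and Fos, immediate early genes, were at 9446 against 1781 and 4198 against 888, and Fgf2 itself at 13.9 against 1.70. The ERK feedback inhibitors Spry1 and Spry2 were lower, at 20.3 against 99.1 and 6.95 against 26.6, and Dusp6 was at 233 against 320.0. Of the other feedback genes Dusp4 was lower, at 20.5 against 53.9, and Spry4 higher, at 10.2 against 4.58, while Spred1 and Spred2 were under 2-fold apart. Of the early genes Jun, Junb, Fosb, Egr2 and Ier2 were under 2-fold apart. Medium and factors cannot be told apart in this pair.

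Markers of other cell types were low in both arrays, apart from the macrophage genes and single members. Of 14 tested endothelial genes 3 were higher (21.4%, against 13.9% of all genes) and 4 lower (28.6%, against 16.2%). The list sum of 2651 in MT iCMs and 386 in MEFs came mostly from Flt1, a VEGF receptor, at 2513 against 149. Cdh5, the cadherin that defines endothelium, was at 2.22 against 2.40, and Pecam1 and Cldn5 were above the limit in neither array. Of 17 neuronal and glial genes 2, Tubb3 and Mapt, were higher and 6 lower, led by Stmn2 at 2.11 against 41.2 and Gap43 at 65.3 against 653. Of 7 epithelial genes Krt19 was lower, and of 5 erythroid genes none was 2-fold apart. The adipocyte gene Fabp4 was at 537 against 167, while Adipoq and Lep were above the limit in neither array. Cartilage and epicardial lists had 2 and 2 higher and 1 and 3 lower genes, all at values under 50. Of 8 pluripotency genes 4 were lower, Nanog, Tdgf1, Dppa3 and Esrrb, at no more than 20.8 in MEFs.

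Outside the lists, the rule for the highest genes named Mustn1, Coch, Col22a1, Serpina3n, Bmp8a, Angptl7, Sv2b and Adamts8 beside Myh1, Tbx5, Myl7 and Smpx. Mustn1, a small nuclear protein of muscle and skeleton, was at 5393 in MT iCMs against 7.20 in MEFs and 18.3 in TTFs, 749-fold higher. Serpina3n, an acute-phase protease inhibitor, was at 6009.7 against 22.7, and Coch, cochlin of the inner ear matrix, at 1692 against 5.30. Col22a1, a collagen of the muscle-tendon junction, was at 857 against 2.92. Adamts8, a metalloprotease, was at 1667 against 9.20, and Angptl7, a secreted angiopoietin relative, at 1299 against 6.05. Bmp8a and the synaptic vesicle gene Sv2b were at 804 against 3.17 and 350.2 against 1.65. All 8 were low in TTFs too, at 61.9 or less, so they set MT iCMs apart from both fibroblast arrays. GMT iCMs at 4 weeks had 507 of Mustn1, 691 of Serpina3n and 8.55 of Sv2b, less than MT iCMs in each case.

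**Figure D4:**
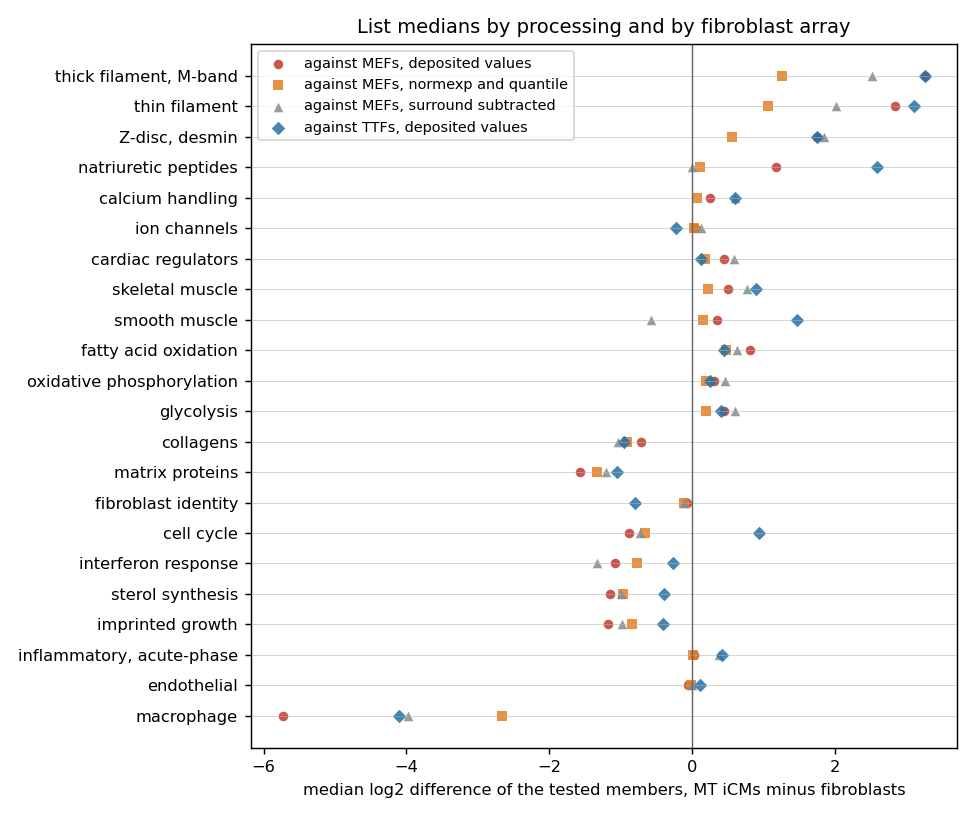
Median log2 difference of the tested members (x axis) of 22 gene lists (rows), for MT iCMs minus MEFs in the deposited values (circles), after normexp correction and quantile normalisation (squares) and with the local surround subtracted (triangles), and for MT iCMs minus TTFs (diamonds). The sarcomere lists stay positive and the collagen, matrix and macrophage lists negative in all 4, the cell cycle list turns from -0.89 to 0.94 with TTFs, and smooth muscle turns to -0.57 with the surround subtracted.

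Across the 15273 genes usable in all arrays, floored log2 values of MT iCMs correlated with r 0.951 with GMTMM iCMs in FFV, 0.936 with GMT iCMs at 4 weeks in FFV, 0.922 with TTFs, 0.903 with MEFs, 0.873 with the E12 heart and 0.854 with the P1 heart. These are descriptions across genes, which are not independent, and MT iCMs, GMTMM iCMs and TTFs share an array series. Probes without a symbol gave a like picture to the named genes: of 5977 tested 12.7% were higher and 16.3% lower.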

How the data were processed

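Per the labels' protocols amino allyl aRNA was made from total RNA and carries the dye Cy5. The intensity values are those deposited by the authors, whose making the labels do not describe. Set against the scanner output, each column proved linear in the median of the spot, with the blank level taken off and the rest scaled to a median of 25, with cells near the blanks left empty. These values were used because the comparison was defined on them, and scanner output, the usual start, served for blank limits, for leaving out 3 genes with a spot flagged in either array, and for alternatives. Blank spots averaged 41.1 on the MT iCM array, 40.6 on the TTF array and 15.3 on the MEF array. The limit was the blank mean plus 2 SD. No probe was saturated on these 3 arrays, 1 array per group limits all precision, and no count test or p-value was used.

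Symbols were updated through RefSeq (12622 current, 3947 updated, 62 without a match), and the brightest probe over all arrays stood for each of the 229 genes with several. No probe had several symbols. The 39 lists hold 717 genes, 657 of them measured. Members and lists were chosen with earlier results of these data known. Named genes are a fixed panel, from each list described, the 6 or fewer members furthest apart, and the 12 highest and 12 lowest genes that were also 2-fold apart after quantile normalisation; Atp2a2, Cdh5, Cdkn1a, Cxcl1, Dusp4, Dusp6, Fcer1g, Gja1, Hoxa9, Hoxb13, Hoxc13, Hoxd9, Il1rn, Il6, Jph2, Ldha, Lif, Mgp, Myh7, Myl2, Myl3, Myod1, Myog, P4ha1, Pcolce, Pdgfra, Pgam1, Pln, Ptprc, Slc8a1, Spry4, Tmem38a, Tnni1, Tpm1 and Vim, and genes given without values, were named after their values were seen. The 10 alternatives fixed at the start and 2 added later are given in the closing section. The steps were tested on simulated data. Tools were R 4.3.3 with limma 3.58.1 (normexp with an offset of 50, quantile normalisation) and Python 3.11.15 with pandas 2.3.3.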

Additional observations from a re-analysis of the deposited data

How the results depend on the processing

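The counts of higher and lower genes were within 1.5 times of 2128 and 2474 when deposited values were quantile normalised, the local surround was subtracted, the floor was raised, probes were averaged or dim genes were kept, and with TTFs in place of MEFs. They were 732 and 687 after normexp and quantile normalisation, 915 and 612 after normexp and median scaling, and 1073 and 690 with 25 added, settings that shrink differences of dim genes by construction. With only genes reaching the array median, chosen after seeing the data, 1267 were lower. Of the higher calls 661, and of the lower 480, held at 2-fold in all 5 settings of scaling. The sarcomere median of 2.33 was 1.06, 1.05 and 1.13 under those 3 settings, 3.29 among genes reaching the median, and 2.57 without the Myl3 probe, also chosen after seeing the data. The fibroblast median ranged from -0.91 to -0.51. The natriuretic median turned to -0.0088 with the surround subtracted.

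Against TTFs the log2 difference turned to 1.28 for Hand2, 0.18 for Asph, -0.22 for Cacna1d, -1.43 for Kcnj8, -0.11 for Tbx3, 0.14 for Bmp10, 1.24 for Cd36, -0.26 for Slc6a8, 1.04 for Fbn2, 0.81 for Fap, 2.72 for Cnn1 and 0.48 for Bub1. It turned to 1.04 for Top2a, 1.49 for Ccna2, 1.16 for Cenpa, 0.82 for Plk1, 1.15 for Ifi44, 0.50 for Usp18, 0.21 for Idi1, 0.16 for Hoxd1, 0.70 for Mest, 0.054 for Cfd, 1.58 for Upk3b and 0.043 for Tdgf1. With the surround subtracted it turned to -0.13 for Kcnj8, 0.25 for Mmp12, -0.78 for Cnn2, -0.045 for Tie1 and -0.10 for Col9a1, and with median scaling to 0.026 for Emcn. The cause of these turns was not tested. No paired analysis was possible because each group is 1 array and no replicate numbers are shared.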
